A study of Mus musculus with 13 samples.

Results

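Eomes and Tbx21, the genes of the T-box transcription factors Eomesodermin and T-bet, were followed through RNA of CD4+ T helper cells from mouse spleen. They are 2 of the 56748 genes in the deposited count table, were taken by gene name, and were read in 13 libraries of 5 groups. All mice received NK1.1-depleting antibody (50 µg on days -2 and 5) and Vk12653 myeloma cells, a plasma cell tumour, on day 0. They then received 20 µg of either a 4-1BB agonist antibody or a control IgG on days 10, 13 and 16, and spleens were taken on day 18. 4-1BB is a costimulatory receptor of activated T cells. All mice also carried Foxp3-Thy1.1, a reporter of the regulatory T cell factor Foxp3, and the sort kept TCR+, CD4+, Thy1.1neg cells. The groups were Eomes-TKO mice given 4-1BB antibody (2 libraries) or IgG (3 libraries), the GFP+ and GFP- fractions of Eomes-GFP mice given 4-1BB antibody (3 libraries each), and undivided cells of Eomes-GFP mice given IgG (2 libraries). The sources used here do not describe how the Eomes-TKO line was made, which promoter drives any deletion in it, or the age of the animals. GFP+ and GFP- libraries of the same number share a prefix that was read as the animal, which gives 10 animals, and nothing else states that replicates were separate animals, so p-values cover library-to-library spread, which may be technical. The series concerns the role of Eomes in helper cells under immunotherapy. Eomes levels in the GFP fractions and in Eomes-TKO cells are therefore checks of a sort and of an altered gene, while Tbx21 was used for neither.

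T-box factors bind DNA through a shared domain, the T-box, and activate genes such as Ifng and Prf1. T-bet is the factor that directs CD4+ T cells to the Th1 fate, and is induced by interferon-gamma and by interleukin-12, the second through Stat4. Eomesodermin is best known in memory and effector CD8+ T cells and in natural killer (NK) cells, and in CD4+ T cells it accompanies a cytotoxic programme.

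The 2 genes are read from chromosome 9 (Eomes, ENSMUSG00000032446, forward strand) and chromosome 11 (Tbx21, ENSMUSG00000001444, reverse strand). In the first-numbered GENCODE M21 transcript of each gene (build GRCm38, older than the GRCm39 build named by the submitters), exons 2 to 5 have the same lengths in both genes, 155, 122, 159 and 62 bases. Of these 498 bases 355 are identical, or 71.3%. The pair is shown for exon 3, which codes for a stretch of the T-box, at chr9:118481265-118481386 (forward) in Eomes and chr11:97101479-97101600 (reverse) in Tbx21, because it shows how far reads of the 2 genes can be told apart. Capitals mark the 33 of 122 bases that differ.
Eomes exon 3: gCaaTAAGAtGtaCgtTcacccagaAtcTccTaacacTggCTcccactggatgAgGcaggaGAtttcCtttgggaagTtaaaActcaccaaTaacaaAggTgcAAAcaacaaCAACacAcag
Tbx21 exon 3: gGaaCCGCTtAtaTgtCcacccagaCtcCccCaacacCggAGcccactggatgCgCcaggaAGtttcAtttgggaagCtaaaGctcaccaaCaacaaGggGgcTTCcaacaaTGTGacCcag
The longest run of bases shared by the 2 transcripts is 16, in exon 4 of Eomes (ggctgcacatcgtgga). No near-identical stretch of read length was found between the 2 genes, so their counts can be set side by side. Tbr1, the relative of Eomes in the brain, has 73.7% identity to Eomes over the same exons, with a longest shared run of 14 bases.

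The promoters of the pair differ in GC content and in some of the short motifs searched, and their base identity was not computed. The windows below are RefSeq sequences on GRCm38.p6, from 250 bases before to 50 after the start, at chr9:118477939-118478238 (forward) for Eomes and chr11:97115282-97115581 (reverse) for Tbx21. They are shown to give the start regions of both genes, and their part in the levels below was not tested. Capitals mark TATATA in Eomes and 3 overlapping GGGCGG in Tbx21.
Eomes promoter: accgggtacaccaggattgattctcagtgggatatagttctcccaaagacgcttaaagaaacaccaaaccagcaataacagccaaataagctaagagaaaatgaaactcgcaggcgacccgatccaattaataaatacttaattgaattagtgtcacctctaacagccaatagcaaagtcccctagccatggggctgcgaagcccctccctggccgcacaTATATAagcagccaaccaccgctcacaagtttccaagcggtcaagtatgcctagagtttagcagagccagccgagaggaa
Tbx21 promoter: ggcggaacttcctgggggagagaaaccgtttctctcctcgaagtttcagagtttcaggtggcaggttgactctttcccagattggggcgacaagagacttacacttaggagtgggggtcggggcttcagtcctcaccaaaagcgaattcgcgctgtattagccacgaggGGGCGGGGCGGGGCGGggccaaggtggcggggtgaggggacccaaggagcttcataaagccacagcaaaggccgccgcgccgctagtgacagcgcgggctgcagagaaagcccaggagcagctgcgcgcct
The GENCODE transcript of Eomes used above starts downstream of its window, at base 118478344, so the start meant here is the RefSeq one. The Eomes window has a GC content of 47.3% and 10 CpG dinucleotides, and the Tbx21 window has 62.0% and 21, against medians of 52.7% and 7 over 32851 listed windows. TATAAA or TATATA, the TATA box letters, stands 30 bases before the RefSeq start of Eomes, is not in the Tbx21 window, and is in 17.1% of all windows on either strand. GGGCGG, the GC box letters, starts 81, 76 and 71 bases before the start of Tbx21, is not in the Eomes window, and is in 35.7% of all windows. The T-box letters GGTGTGA (3.98% of windows) and their core GTGTGA (14.5%), the Runx letters TGTGGT (16.8%) and the STAT letters TTCNNNGAA (8.30%) were searched on both strands, with the core counted again inside each longer T-box match, and none is in either window.

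Libraries held 6080956 to 10881129 estimated counts, and 3 counts correspond to 0.276 to 0.493 CPM, which is the count scaled to the library total. Levels below are CPM scaled by TMM, a normalization for library composition. CD4 T cell markers were all present, with 8 of 8 genes above 0 in each group. They summed to 5354 to 5965 CPM in GFP+ libraries, against 3304 to 4242 CPM in the others. Of the 8, 6 were called higher in GFP+ than in GFP- cells, where 20.7% of all genes were called higher. NK cells also express both T-box factors, and NK markers were checked for that reason. Among 10 NK and ILC1 markers, Klra4 was at 0 in all libraries and Ncr1 in 12, with 0.10 CPM in 1 Eomes-TKO 4-1BB library. Without Il2rb, which T cells also express, the NK sum was 2.26 to 13.9 CPM, and it was 4.57 to 6.66 CPM in GFP+ libraries. Of the CD8 T cell markers, Cd8a did not exceed 3.76 CPM and was called higher in GFP+ than in Eomes-GFP IgG cells (2.13 ± 1.76 against 0.0636 ± 0.0899 CPM, adjusted p = 0.0118). Cd8b1 did not exceed 10.7 CPM and was called lower in GFP+ than in GFP- cells (-1.09 ± 0.40, adjusted p = 0.0445). Zbtb16, a marker of innate-like T cells, was at 0.633 ± 0.475 CPM in GFP+ against 12.8 ± 4.97 CPM in GFP- cells (-4.24 ± 0.52, adjusted p = 3.28e-05). It was the only call among 4 gamma-delta and innate-like markers tested in this comparison, where 16.5% of all genes were called lower. Of the 4, 3 had a negative and 1 a positive difference. Trdc, of the same list, stood at 23.4, 15.7 and 5.27 CPM in GFP+ against 9.03, 9.75 and 7.41 CPM in GFP- libraries, without a call. B cell and plasma cell markers summed to 16.1 to 17.4 CPM in GFP+ against 21.1 to 25.1 CPM in GFP- libraries. The sums were 31.4 to 32.5 CPM in Eomes-TKO 4-1BB, 22.2 to 31.0 in Eomes-TKO IgG and 23.4 to 26.1 in Eomes-GFP IgG libraries. All 3 tested were called higher in Eomes-TKO 4-1BB than in GFP+ cells, where 15.7% of all genes were. Among them Jchain, at 4.68 and 3.23 CPM in Eomes-TKO 4-1BB libraries, did not exceed 0.554 CPM elsewhere. Myeloid markers summed to 17.3 to 43.9 CPM in GFP+, 7.68 to 24.5 in GFP- and 8.12 to 10.8 in Eomes-TKO 4-1BB libraries, against 0.834 to 2.26 in Eomes-TKO IgG and 1.17 to 1.27 in Eomes-GFP IgG libraries. The myeloid sum was thus higher in every library of 4-1BB-treated mice. The part of these marker shifts in the differences below was not tested.

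Eomes ranged over more than 2 orders of magnitude, with GFP+ cells far above the other groups. It stood at 3.59 and 8.03 CPM in Eomes-TKO cells after 4-1BB antibody (23 and 77 counts) and at 1.36, 2.96 and 3.19 CPM in Eomes-TKO cells after IgG (13, 30 and 24 counts). In 4-1BB-treated Eomes-GFP mice it stood at 570.3, 706 and 685 CPM in GFP+ cells and at 3.54, 1.83 and 2.26 CPM in GFP- cells (29, 15 and 25 counts). Undivided cells of IgG-treated Eomes-GFP mice held 13.99 and 16.8 CPM (110 and 172 counts). All 3 GFP+ libraries were far above the rest, the 2 undivided Eomes-GFP libraries formed a second step, and the other 8 libraries lay at or below 8.03 CPM. Group means were 5.81 ± 3.14, 2.50 ± 0.998, 654 ± 73.0, 2.54 ± 0.889 and 15.4 ± 2.01 CPM in that order of groups (SD, n = 2, 3, 3, 3 and 2). As a share of the GFP+ mean these are 0.889%, 0.383%, 100%, 0.389% and 2.36%. In such bulk RNA fewer cells with Eomes and less Eomes RNA per cell cannot be told apart.

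Tbx21 was detected in every group, over a narrower range than Eomes. It stood at 9.68 and 19.8 CPM in Eomes-TKO 4-1BB cells and at 16.8, 19.8 and 21.1 CPM in Eomes-TKO IgG cells. GFP+ cells held 40.9, 17.3 and 27.7 CPM and GFP- cells 27.0, 24.6 and 19.1 CPM. Undivided Eomes-GFP IgG cells held 12.1 and 21.5 CPM. The highest library was a GFP+ one and the lowest an Eomes-TKO 4-1BB one, but every pair of groups overlapped. Behind these values were 62 to 295 counts. Means were 14.7 ± 7.16 CPM in Eomes-TKO 4-1BB, 19.2 ± 2.22 in Eomes-TKO IgG, 28.6 ± 11.8 in GFP+, 23.5 ± 4.06 in GFP- and 16.8 ± 6.69 in Eomes-GFP IgG cells (SD, n = 2, 3, 3, 3 and 2). The spread was widest among GFP+ libraries, where the highest was 2.37 times the lowest, while for Eomes this ratio was 1.24.

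**Figure D1:**
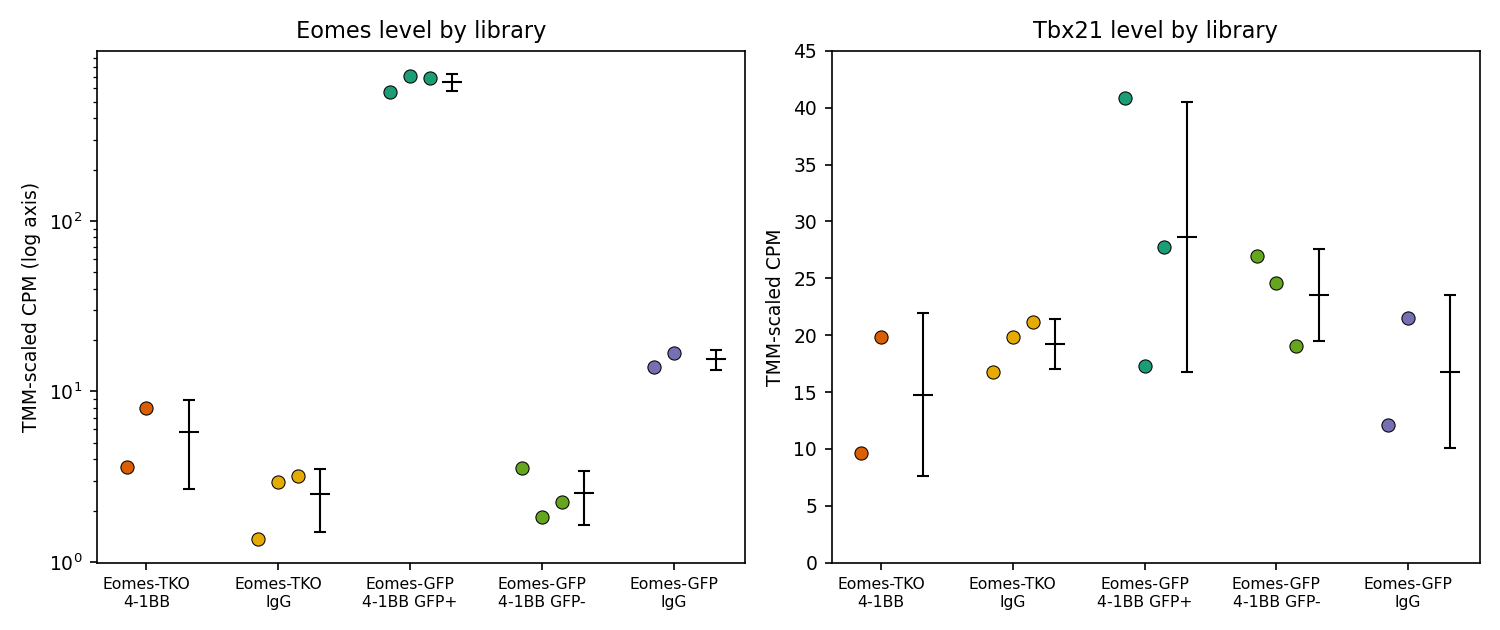
Level of Eomes (left, TMM-scaled CPM on a log axis) and Tbx21 (right, TMM-scaled CPM on a linear axis from 0) in each of 13 libraries. Points are libraries and the bars beside them are mean ± SD: Eomes reaches 570.3 to 706 CPM in GFP+ cells and at most 16.8 CPM elsewhere, while Tbx21 runs from 9.68 to 40.9 CPM with overlap between all groups.

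Within the treated Eomes-GFP mice, the sort on the reporter was recovered in the RNA of Eomes without a call for Tbx21. Eomes differed by 8.01 ± 0.30 log2 units between GFP+ and GFP- cells (SE; 95% interval 7.36 to 8.67; edgeR adjusted p = 1.87e-09). Tbx21 differed by 0.28 ± 0.32 (interval -0.41 to 0.98; adjusted p = 0.53). By animal, Tbx21 was higher in GFP+ than in GFP- cells in 2 of 3: 40.9 against 27.0 CPM in the first, 17.3 against 24.6 in the second, and 27.7 against 19.1 in the third. Thus 1 of the 2 genes was called, where 37.1% of 14059 tested genes were called in this comparison. With the animal as a block the Tbx21 difference was 0.19 (adjusted p = 0.521). It turned negative without GFP+ replicate 1 (-0.08, adjusted p = 0.864), and adjusted p ran from 0.22 to 0.864 over all alternatives tried.

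Against undivided cells of IgG-treated Eomes-GFP mice, treatment, sort and animals differ together. Eomes in GFP+ cells was higher by 5.40 ± 0.30 log2 units (adjusted p = 6.64e-08). Tbx21 averaged 28.6 ± 11.8 CPM in GFP+ against 16.8 ± 6.69 CPM in Eomes-GFP IgG cells, a difference of 0.76 ± 0.37 (interval -0.04 to 1.56; adjusted p = 0.137) that did not pass, where 34.2% of genes did. It passed without GFP+ replicate 2, the GFP+ library lowest in Tbx21 (0.98, adjusted p = 0.0409), and without a filter on low counts (0.73, adjusted p = 0.00547). Over all alternatives adjusted p ran from 0.00547 to 0.598.

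GFP- cells lay below the undivided cells for Eomes. Their mean was 2.54 ± 0.889 CPM against 15.4 ± 2.01 CPM in Eomes-GFP IgG cells (SD, n = 3 and 2), which is 6.11-fold lower (-2.61 ± 0.32 log2, interval -3.32 to -1.90; adjusted p = 0.00589), and all 3 libraries were below both. Treatment, sort and animals differ together here, and their parts cannot be told apart. Of all genes 0.107% were called lower and 0.654% higher in this comparison. The call was lost without Eomes-GFP IgG replicate 2 (-2.47, adjusted p = 0.084, the highest over the alternatives, which began at 4.92e-38 without a filter). Tbx21 stood at 23.5 ± 4.06 CPM in GFP- cells against 16.8 ± 6.69 CPM (0.47 ± 0.37, interval -0.32 to 1.27; adjusted p = 0.836).

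Under IgG, Eomes-TKO cells held 2.50 ± 0.998 CPM of Eomes against 15.4 ± 2.01 CPM in Eomes-GFP cells (SD, n = 3 and 2). This is 6.24-fold lower (-2.64 ± 0.33 log2, interval -3.35 to -1.93; adjusted p = 0.0219), with all 3 libraries below both. Eomes was 1 of 2 genes called among 14059, or 0.0142%, both lower. The label is met in this group, and Eomes reads were not absent: 13 to 30 counts remained per library, with exact Poisson 95% intervals of 0.735 to 2.36, 2.00 to 4.23 and 2.15 to 5.00 CPM before TMM scaling. Such intervals cover counting error only. The table counts by gene, so from which exons the remaining reads come was not tested. The call rested on single libraries and on the shared estimate of spread: adjusted p was 0.0634 with only these groups in the fit, 0.344 without Eomes-GFP IgG replicate 2, 0.17 without Eomes-TKO replicate 2, 0.0695 without Eomes-GFP IgG replicate 1, 0.0554 without Eomes-TKO replicate 1 and 0.0537 without GFP- replicate 3, within a range of 8.34e-39 to 0.344. Tbx21 was 19.2 ± 2.22 CPM in Eomes-TKO against 16.8 ± 6.69 CPM in Eomes-GFP cells (0.18 ± 0.37, interval -0.61 to 0.98; adjusted p = 1), and this difference became -0.17 without Eomes-GFP IgG replicate 1.

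In Eomes-TKO mice, 4-1BB antibody came with more of the remaining Eomes reads, without a call. Cells after 4-1BB antibody held 3.59 and 8.03 CPM against 1.36, 2.96 and 3.19 CPM after IgG. The difference was 1.29 ± 0.37 log2 units (interval 0.48 to 2.11; edgeR adjusted p = 0.674), where 0.0427% of genes passed, all higher. The counting intervals of the nearest libraries overlapped, at 2.40 to 5.68 CPM for Eomes-TKO 4-1BB replicate 1 and 2.15 to 5.00 CPM for Eomes-TKO IgG replicate 3. DESeq2 called the difference (1.28, adjusted p = 0.0195), as did edgeR without a filter (1.29, adjusted p = 1.6e-06) and without Eomes-TKO 4-1BB replicate 1 (1.69, adjusted p = 0.0453), and without Eomes-TKO 4-1BB replicate 2 it was 0.54, within an adjusted p of 1.6e-06 to 1 over the alternatives. Tbx21 was 14.7 ± 7.16 CPM after 4-1BB antibody against 19.2 ± 2.22 CPM after IgG (-0.36 ± 0.37, interval -1.17 to 0.45; adjusted p = 1). That value turned to 0.04 without Eomes-TKO 4-1BB replicate 1, the shallowest library.

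Eomes-TKO cells and the GFP fractions under the same antibody differ in mouse line, sort and animals together, whose parts cannot be told apart. Eomes-TKO cells after 4-1BB antibody were also set against both fractions. Their 3.59 and 8.03 CPM of Eomes lay just above the 3.54, 1.83 and 2.26 CPM of GFP- cells, with a difference of 1.26 ± 0.37 (interval 0.45 to 2.07; edgeR adjusted p = 0.462), where 0.00711% of genes were called higher and 0.0356% lower. Under DESeq2 this was 1.25 (adjusted p = 0.0272) and without a filter 1.26 (adjusted p = 4.45e-06), within a range of 4.45e-06 to 1. Tbx21 differed from GFP- cells by -0.65 ± 0.37 (interval -1.46 to 0.16; adjusted p = 0.82). Against GFP+ cells Eomes was lower by 6.75 log2 units (-6.75 ± 0.33, adjusted p = 2.5e-08). Tbx21 was 9.68 and 19.8 CPM in Eomes-TKO 4-1BB against 40.9, 17.3 and 27.7 CPM in GFP+ cells, which overlap, with a difference of -0.93 ± 0.37 (interval -1.75 to -0.12; edgeR adjusted p = 0.0741) where 34.6% of genes passed. Of the Tbx21 comparisons this one came nearest to a call. DESeq2 (adjusted p = 0.0286), edgeR without a filter (0.000389), without GFP+ replicate 2 (0.0215) and without Eomes-TKO 4-1BB replicate 2 (0.0238) placed it below 0.05, and over all alternatives adjusted p reached 0.453.

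**Figure D2:**
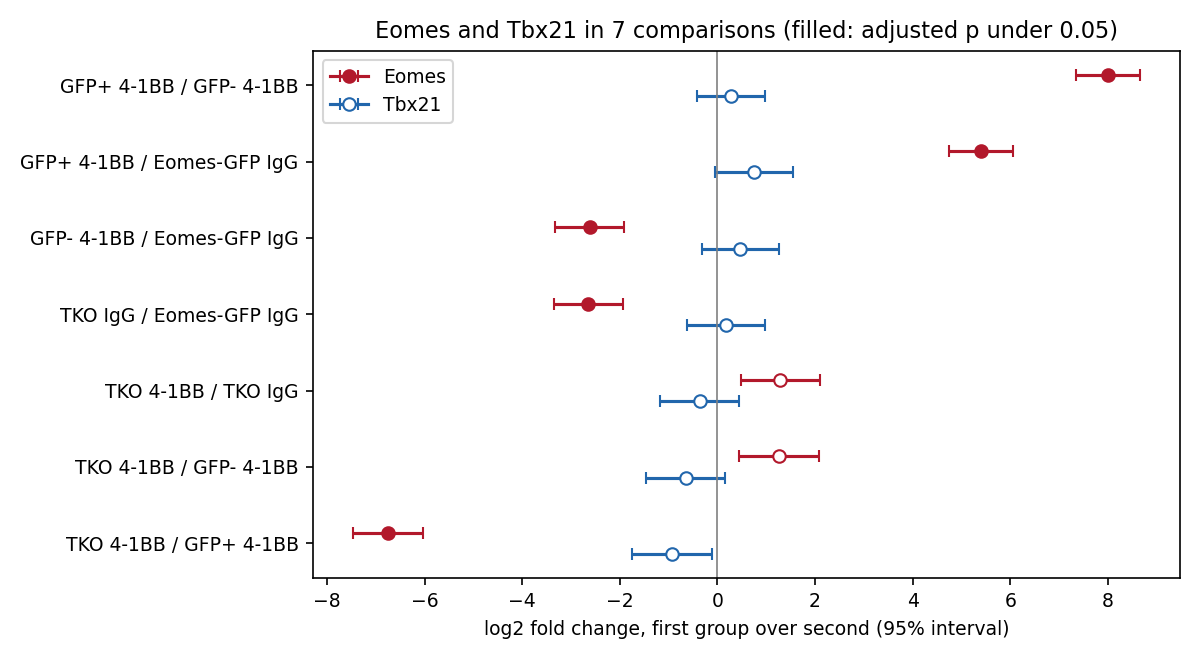
Log2 fold change of Eomes and Tbx21 in 7 comparisons (rows), first-named group over second, with 95% intervals. Filled points have an edgeR adjusted p under 0.05: Eomes is filled in 5 of 7, with values from -6.75 to 8.01, and Tbx21 in none, with values from -0.93 to 0.76.

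In the order of group means for Eomes, GFP+ cells came first and undivided Eomes-GFP IgG cells next, and this step was called. The following neighbours were not called: Eomes-TKO 4-1BB against Eomes-GFP IgG cells (-1.35 ± 0.33, adjusted p = 0.694), Eomes-TKO 4-1BB against GFP- cells (adjusted p = 0.462) and Eomes-TKO IgG against GFP- cells (-0.03 ± 0.39, adjusted p = 0.985), where 2.2% of genes were called, 0.533% higher and 1.66% lower. Eomes-TKO IgG and GFP- cells thus differed by less than the spread between their libraries. For Tbx21 the order was GFP+, GFP-, Eomes-TKO IgG, Eomes-GFP IgG and Eomes-TKO 4-1BB, with no neighbouring pair called (adjusted p 0.53, 0.736, 1 and 1). The comparisons that share Eomes-GFP IgG, GFP+ or GFP- libraries are not independent of each other.

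Which of the 2 genes gave more RNA per length of exon differed by group. GFP+ and GFP- cells were sorted on the Eomes reporter, and Eomes is the altered gene in Eomes-TKO cells. Ratios in these groups are therefore checks, as the Eomes levels are. Only the Eomes-GFP IgG cells were neither divided by the reporter nor from the Eomes-TKO line. Levels were divided by the union of annotated exons, 4155 bases for Eomes and 2488 for Tbx21, to compare them per length. On this scale the ratio of Eomes to Tbx21 was 0.222 and 0.243 in Eomes-TKO 4-1BB cells and 0.0484 to 0.0904 in Eomes-TKO IgG cells. It was 8.35, 24.5 and 14.8 in GFP+ cells and 0.0445 to 0.0786 in GFP- cells. In undivided Eomes-GFP IgG cells it was 0.693 and 0.468. Eomes exceeded Tbx21 in the 3 GFP+ libraries, and Tbx21 exceeded Eomes in the other 10, by 1.44-fold at least. Without division by length the 2 undivided Eomes-GFP IgG libraries fell on either side of an equal level, with log2 ratios of 0.21 and -0.36.

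**Figure D3:**
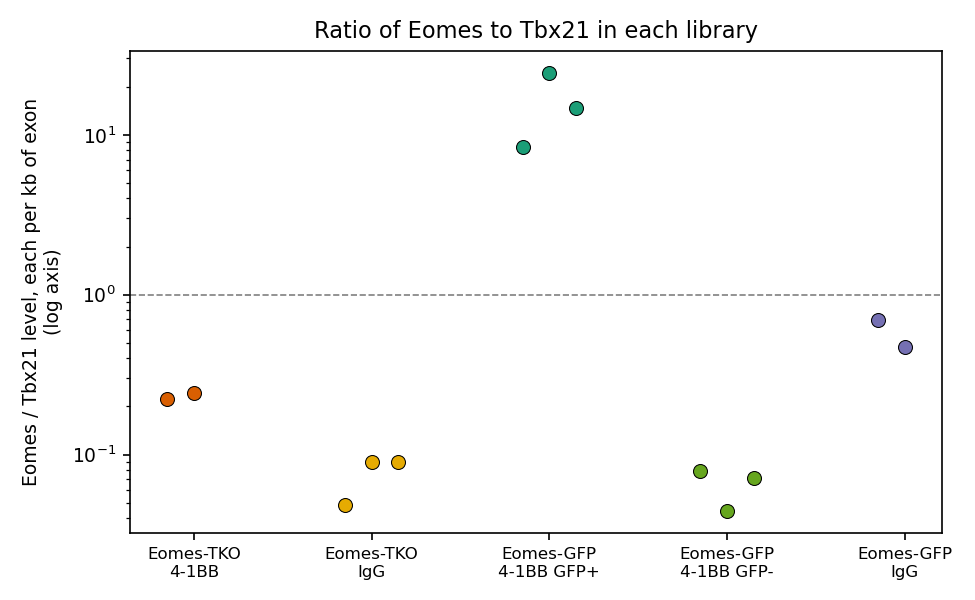
Ratio of the Eomes level to the Tbx21 level in each library, each per kilobase of exon, on a log axis; the dashed line marks equal levels. GFP+ libraries lie at 8.35 to 24.5, undivided Eomes-GFP IgG libraries at 0.468 and 0.693, and the other 8 libraries at 0.0445 to 0.243.

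Ranked per kilobase among 13737 tested genes with an annotated length, Eomes reached percentiles of 98.3 to 98.7 in GFP+ libraries, against 9.45 to 15.2 in GFP- and 39.0 to 43.1 in undivided Eomes-GFP IgG libraries. In Eomes-TKO cells it ranked at 14.9 to 28.3 after 4-1BB antibody and 8.14 to 15.4 after IgG. Tbx21 kept to the middle of the range, between percentile 40.4 and 78.0 in all 13 libraries. Eomes thus ranked above Tbx21 in GFP+ cells only, among these groups, and its rank in GFP+ cells is a description of the sorted population.

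Of the other T-box genes, Mga and Tbx6 gave the most RNA. Of the 17 family genes listed, 9 had no count in any of the 13 libraries, and 8 had counts, of which 6 could be tested. Mga, a large T-box factor that pairs with Max and represses genes in many cell types, ran from 204 to 367 CPM. It averaged 219.5 ± 15.6 CPM in GFP+ against 296 ± 15.05 in GFP- cells (-0.43 ± 0.09, adjusted p = 0.00212) and was at 336 ± 1.12 CPM in undivided Eomes-GFP IgG cells (-0.61 ± 0.10 for GFP+ over these, adjusted p = 0.00031). Eomes-TKO 4-1BB cells held 328 ± 23.2 CPM of Mga, higher than GFP+ cells (0.58 ± 0.10, adjusted p = 0.000544). The fall of Mga in GFP+ cells was thus the only call in the family besides Eomes itself between the fractions, among 6 tested genes. Of all genes 37.1% were called in that comparison.

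Tbr1 ran from 1.48 to 4.84 CPM and stood at 1.83 ± 0.124 CPM in GFP+ against 3.55 ± 0.303 CPM in GFP- cells, without a call (-0.95 ± 0.38, adjusted p = 0.0654). Tbx6, a mesoderm factor in embryos, ran from 6.88 to 14.5 CPM and had no call. Per kilobase of exon this was 3.82 to 8.05 CPM, a range that overlaps the 3.89 to 16.4 CPM of Tbx21. Tbx2 stayed between 0.296 and 1.87 CPM, Tbx19, a pituitary factor, at or below 0.493 CPM, and Tbx1 had 1 count in 1 GFP+ library. In the other 4 comparisons named above, no family gene other than Eomes was called.

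Signals known to induce Eomes or Tbx21 were read from 19 receptor, kinase and transcription factor genes, all tested. Between GFP+ and GFP- cells 4 were higher and 6 lower by the same edgeR test, and 9 were not called, where 20.7% of all genes were called higher and 16.5% lower; the median of the list was -0.14 against 0.02 for all genes. The receptor chains for a cytokine did not move as one. Il12rb1, a chain of the interleukin-12 receptor, rose to 65.1 ± 17.0 CPM in GFP+ against 14.8 ± 2.64 in GFP- cells (2.14 ± 0.23, adjusted p = 5.41e-06), while its partner Il12rb2 fell to 0.731 ± 0.346 against 4.54 ± 2.52 CPM (-2.63 ± 0.52, adjusted p = 0.00103). Likewise Ifngr1 rose (0.76 ± 0.12) and Ifngr2, the other chain of the interferon-gamma receptor, fell (-4.06 ± 0.21). Il2rb, the interleukin-2 and interleukin-15 receptor chain that T-box factors themselves act on, rose by 2.38 ± 0.22, and Il2ra fell by 1.77 on the log2 scale.

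Among the signal transducers, Stat4, which acts below interleukin-12, rose to 187 ± 16.8 CPM in GFP+ against 116 ± 14.7 CPM in GFP- cells (0.68 ± 0.12, adjusted p = 0.000388). Stat5a, which acts below interleukin-2, fell by 0.47 on the log2 scale. Il4ra, the interleukin-4 receptor chain that favours the Th2 fate, fell to 98.3 ± 9.39 against 341 ± 24.3 CPM (-1.79 ± 0.11, adjusted p = 1.22e-08). In GFP- against Eomes-GFP IgG cells only Irf1, an interferon-induced factor, was called, at 379 ± 5.83 against 236 ± 1.45 CPM (0.68 ± 0.12, adjusted p = 0.0232). Its 3 GFP- libraries lay at 372 to 383 CPM and both IgG libraries at 235 and 237 CPM.

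Transcription factors that work with T-box factors, or against them in other helper fates, were read from 26 genes, 24 of them tested. Between GFP+ and GFP- cells 9 were higher and 11 lower (20.7% and 16.5% of all genes), with a median of -0.25 against 0.02 for all genes. Of the Runx family, whose Runx3 acts with T-bet at Ifng, Runx3 rose to 471 ± 4.63 CPM in GFP+ against 136 ± 11.8 CPM in GFP- cells (1.79 ± 0.12, adjusted p = 2.68e-08) and Runx2 rose by 1.70 ± 0.27. Runx1 was at 233 ± 35.7 against 291 ± 35.7 CPM (-0.32 ± 0.13, adjusted p = 0.0697). Prdm1, the gene of Blimp-1, rose by 3.50 ± 0.19, Bhlhe40 by 2.26 ± 0.30, Batf by 1.57 ± 0.25 and Zeb2, a partner of T-bet in terminal effector cells, by 1.34 ± 0.43. Among factors of other fates, Bcl6 (follicular helper) stood at 38.8, 36.8 and 44.6 CPM in GFP+ against 39.5, 39.1 and 30.9 CPM in GFP- libraries, which overlap. Gata3 (Th2) fell by 0.67, and Zbtb7b, a factor of the CD4 lineage itself, fell by 0.56 on the log2 scale. Tcf7, Lef1, Foxo1 and Foxo3, factors of naive and memory T cells, fell by 1.38, 1.46, 1.00 and 0.89. Kdm6b, a histone demethylase that works with T-box factors, fell to 138 ± 39.6 against 411 ± 28.0 CPM (-1.57 ± 0.20, adjusted p = 4.15e-05).

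Part of the Runx2 and Bhlhe40 difference was also present in GFP- cells. Runx2 stood at 69.9, 54.95 and 39.7 CPM in GFP- against 12.5 and 15.4 CPM in Eomes-GFP IgG cells (1.97 ± 0.34, adjusted p = 0.0282). Bhlhe40 stood at 101, 138 and 107 against 24.4 and 30.2 CPM (2.07 ± 0.36, adjusted p = 0.031). These were the 2 of 24 called in that comparison, both higher (0.654% of all genes). In Eomes-TKO mice Runx2 was 12.02 and 30.7 CPM after 4-1BB antibody against 13.2, 14.004 and 15.1 CPM after IgG, which overlap.

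Genes linked to T-box factors in T and NK cells, either bound or dependent on them by general knowledge, formed a list of 29, all tested. Like the other gene lists, it was chosen with earlier results of these data known, so its counts are a description. Between GFP+ and GFP- cells 20 were called higher and 5 lower (20.7% and 16.5% of all genes), with a median of 2.702 against 0.02 for all genes. Against Eomes-GFP IgG cells 21 were higher and 6 lower (median 2.51; all genes 18.8% and 15.4%). In Eomes-TKO 4-1BB against GFP+ cells 5 were higher and 22 lower (median -3.13; all genes 15.7% and 18.8%). These 3 comparisons share the GFP+ libraries. Ifng, the Th1 cytokine, stood at 94.4, 142 and 96.9 CPM in GFP+ against 12.7, 20.6 and 17.9 CPM in GFP- cells (2.702 ± 0.23, adjusted p = 5.98e-07). Prf1, the pore-forming protein of killer granules, stood at 220.2, 223 and 207 against 30.1, 37.4 and 34.9 CPM (2.67 ± 0.15, adjusted p = 6.87e-09), and Fasl, a death ligand, rose by 3.05 ± 0.21. Slamf7, a receptor of cytotoxic lymphocytes, stood at 183, 174 and 182 against 6.59, 8.04 and 5.87 CPM (4.72 ± 0.24, adjusted p = 4.29e-09).

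The list did not move in one direction as a whole. Il18r1, a chain of the interleukin-18 receptor, fell to 21.6 ± 4.70 CPM in GFP+ against 119 ± 11.4 CPM in GFP- cells (-2.46 ± 0.14, adjusted p = 8.29e-09). Its partner chain Il18rap was at 76.4, 38.6 and 61.03 against 43.5, 42.6 and 24.1 CPM (0.68 ± 0.32, adjusted p = 0.124), and the difference between the 2 chains was not tested. Tnf (-1.05 ± 0.16), the integrin Itga1 (-3.43 ± 0.45), Il12rb2 and the egress receptor S1pr1 (-0.51 ± 0.10) were the other 4 called lower. Gzma, Itgb1 and S1pr5 were not called. Of the NK markers, Cd244a was at 1.89 ± 0.130 CPM in GFP+ against 0.182 ± 0.183 CPM in GFP- cells (3.28 ± 0.88) and Klrb1c at 0.495 ± 0.0888 against 1.49 ± 0.599 CPM (-1.53 ± 0.47); their part in the rise of cytotoxic genes was not tested. Ccl3 and Ccl4, related chemokine genes, are counted among the 20 that rose.

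In 4 comparisons without the GFP+ fraction edgeR called 0 of the 29, where few of all genes were called either. In GFP- against Eomes-GFP IgG cells (0.761% of all genes called) the median was 0.04 and 6 members had an unadjusted p under 0.05; DESeq2 called 4, edgeR without a filter 8 and edgeR on only these groups 5. In Eomes-TKO against Eomes-GFP cells under IgG (0.0142%) the median was 0.03, 3 had an unadjusted p under 0.05, DESeq2 called 0 and edgeR without a filter 1. In Eomes-TKO 4-1BB against Eomes-TKO IgG cells (0.0427%) these were -0.25, 6, 0 and 7. In Eomes-TKO 4-1BB against GFP- cells (0.0427%) they were -0.22, 6, 1 and 10. In Eomes-TKO IgG against GFP- cells (2.2%) 1 member was called higher and 1 lower. Gzmk, a granzyme gene, had the smallest p in the Eomes-TKO treatment comparison, at 0.312 and 5.01 CPM after 4-1BB antibody against 0.521, 0.394 and 0.133 CPM after IgG (2.99 ± 0.79, adjusted p = 0.566). It was raised in 1 of 2 libraries, the Eomes-TKO 4-1BB library that was also the higher one for Eomes and Tbx21.

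**Figure D4:**
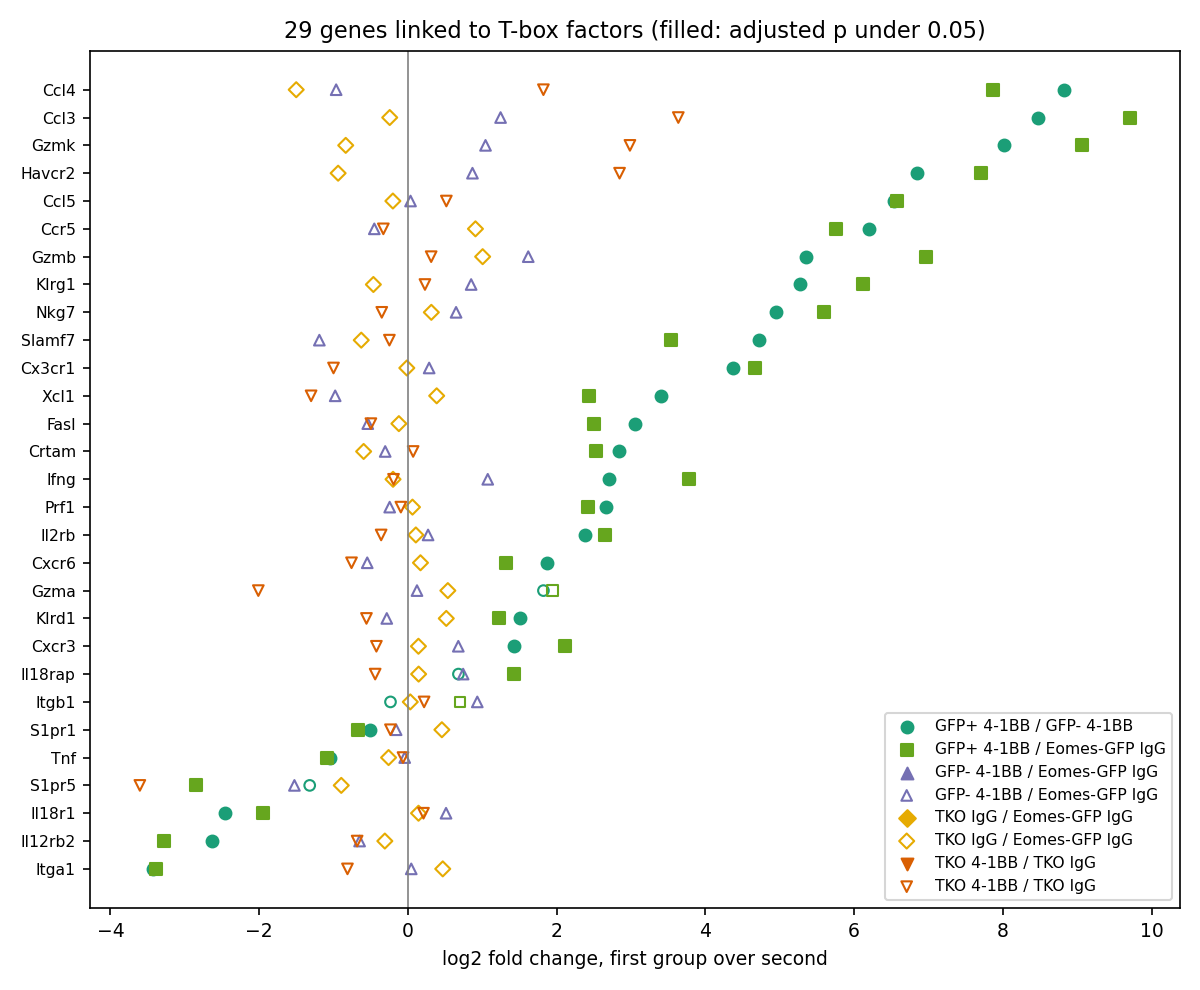
Log2 fold change, first-named group over second, of 29 genes linked to T-box factors (rows) in 5 comparisons (symbols); filled symbols have an edgeR adjusted p under 0.05. Both comparisons of GFP+ cells reach above 8 for Gzmk, Ccl3 or Ccl4 and have 25 and 27 filled symbols, while the 3 plotted comparisons without GFP+ cells have none.

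Promoter windows were listed for 21 of these 29 genes. GGTGTGA, the T-box letters, was found in 3 of them (14.3%), against 4.60% of the 27025 genes with a window. The 3 sites are shown with the match in capitals, since these genes rose with Eomes in GFP+ cells. They lie at chr1:164935693-164935721 (reverse) for Xcl1, a chemokine, chr7:43437114-43437142 (forward) for Nkg7, a granule membrane protein, and chr13:113181023-113181051 (reverse) for Gzmk, all on GRCm38.p6.
Xcl1 site: ggtctcatgttGGTGTGAacaaggcaaag
Nkg7 site: ggggtagggaaGGTGTGAgaagaatcaga
Gzmk site: ttgaaaccttgGGTGTGAaaaatctaacg
Between GFP+ and GFP- cells Gzmk rose by 8.02 ± 0.42, Nkg7 by 4.95 ± 0.46 and Xcl1 by 3.41 ± 0.60 log2 units. TGTGGT, the Runx letters, was in 12 of the 21 windows (57.1%), against 18.9% of genes. The T-box core GTGTGA was in 7 (33.3%, against 16.4% of genes) and the STAT letters in 5 (23.8%, against 9.55%). The TATA box letters were in 3 (14.3%, against 19.6%) and the GC box letters in 4 (19.0%, against 38.2%). A match is a string of letters in a window and does not show binding, and the list was chosen by hand, so these shares are a description.

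The genes whose log2 CPM most resembled that of Eomes over the 13 libraries, among 10550 genes, were Myb (Pearson r = 0.98), Tm6sf1 (0.976), Slamf7 (0.973), Crtam (0.971) and Tpm4 (0.970), followed by Ska2, Armc7 and Man1a down to 0.963. The lowest were Usp22 (-0.975), Prdx6 (-0.974), Otud1 (-0.970) and Dip2c (-0.966). With 3 GFP+ libraries far from the other 10, and libraries of a group sharing sort and treatment, r is given as a description. Tbx21 reached 0.39 with Eomes over 13 libraries and -0.18 over the 10 libraries other than GFP+.

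Myb, the gene of a transcription factor of progenitor and memory T cells, was also among the 5 genes most like Eomes over the 10 libraries without GFP+ cells (r = 0.905), after Emc7 (0.922) and Acsl4 (0.907) and before Ccdc61 (0.893) and Ppil3 (0.85). It stood at 44.97 and 47.03 CPM in Eomes-TKO 4-1BB and 39.3, 42.9 and 44.6 CPM in Eomes-TKO IgG cells. In GFP+ libraries it was 200.5, 155 and 217 CPM and in GFP- libraries 38.5, 32.5 and 31.1 CPM, with 69.7 and 76.1 CPM in Eomes-GFP IgG cells. The undivided Eomes-GFP libraries lay between the GFP+ libraries and the other 8 for Myb as they did for Eomes. Myb was picked for its likeness to Eomes over these same libraries, so this order is part of that choice. The tests of Myb use the same values and add no separate support. Myb was called lower in GFP- than in Eomes-GFP IgG cells (-1.10 ± 0.14, adjusted p = 0.00372) and not in Eomes-TKO against Eomes-GFP cells under IgG (-0.79 ± 0.14, adjusted p = 0.2).

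Tbx21 was followed by other genes. Over 13 libraries the most similar were Il18rap (r = 0.905), Ly6c2 (0.882) and Id2 (0.853), then Tnip2, Mns1, Ift27, Xlr4a and Aifm1 down to 0.831, and the least similar were Tafazzin (-0.861), Sec22c, Fastk and Faap20 (-0.838). Over the 10 libraries without GFP+ cells they were Lysmd2 (0.964), Chsy1 (0.935), Abcb1a (0.931), Il18rap (0.925) and Nkg7 (0.925). Ly6c2 has the near-identical copy Ly6c1, with which reads can be shared. Id2, a helix-loop-helix inhibitor known in effector lymphocytes, stood at 217, 156 and 196 CPM in GFP+ against 123, 139.6 and 114 CPM in GFP- cells (0.60 ± 0.21, adjusted p = 0.0432). Il18rap stood at 13.4 and 21.8 CPM in Eomes-TKO 4-1BB, 19.0, 29.5 and 24.0 CPM in Eomes-TKO IgG and 15.3 and 28.2 CPM in Eomes-GFP IgG cells.

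The GFP+ library lowest in Tbx21 and the library lowest in Tbx21 of all 13 were also at an end of their groups for some other genes. These genes were named after their values were seen. GFP+ replicate 2, lowest of its group for Tbx21, was lowest for Il18rap, Id2 and Zeb2 (15.3 CPM, against 30.1 and 28.2 in the other 2). Il18rap and Id2 were picked for likeness to Tbx21 over these libraries, so their place is part of that choice. The same replicate was highest for Eomes (706 CPM, against 570.3 and 685), Nkg7 (1203 CPM, against 739.9 and 703) and Ifng. Eomes-TKO 4-1BB replicate 1, with 6080956 counts the shallowest library, was lower than replicate 2 for Tbx21, Nkg7 (6.72 against 27.6 CPM), Cxcr3 (16.7 against 52.9 CPM) and Il2rb (103 against 188 CPM). What lies behind these differences was not tested.

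**Figure D5:**
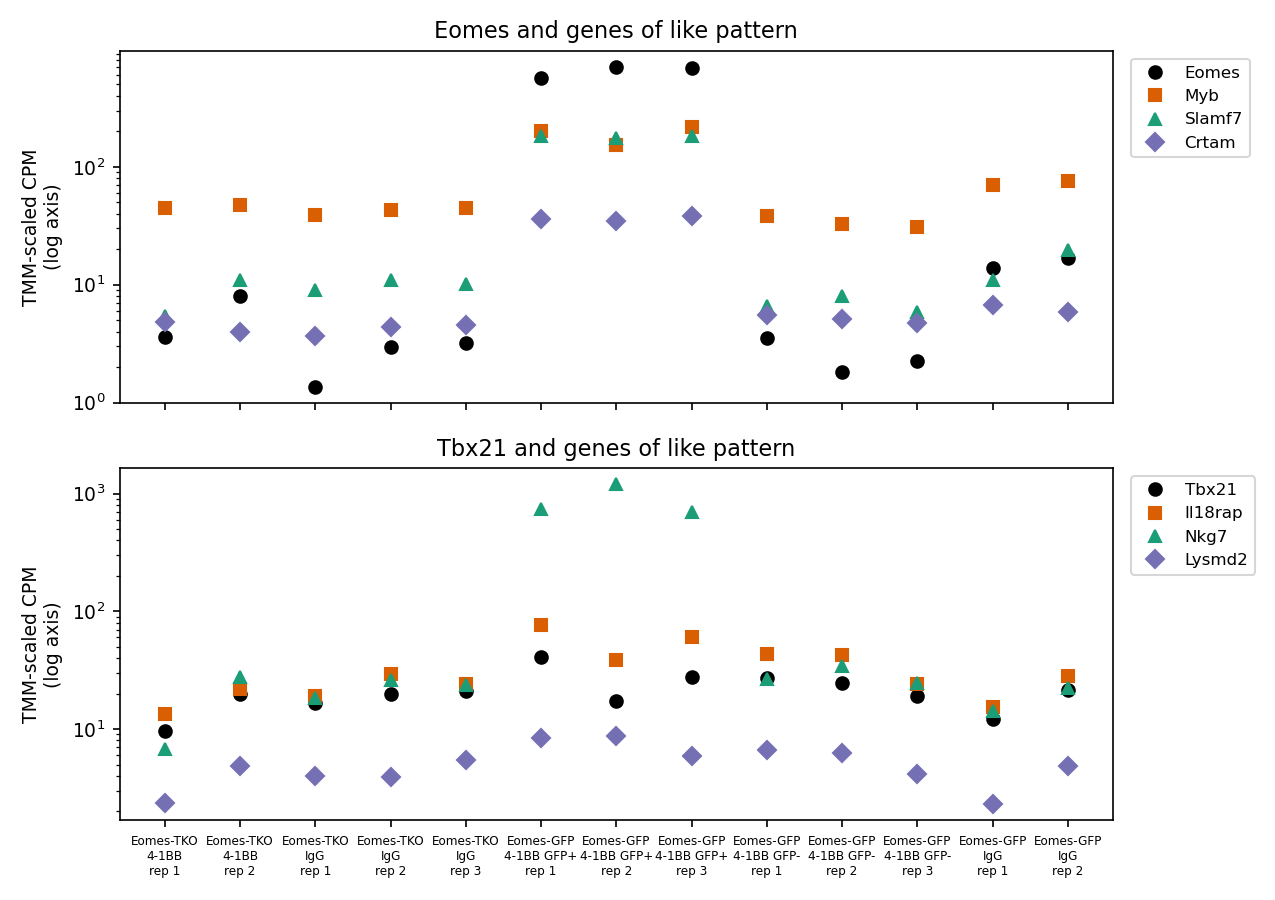
Level (TMM-scaled CPM, log axis) in each of 13 libraries of Eomes with Myb, Slamf7 and Crtam (top) and of Tbx21 with Il18rap, Nkg7 and Lysmd2 (bottom). The top genes are highest in the 3 GFP+ libraries, where Eomes is at 570.3 to 706 CPM; in the bottom panel Il18rap, like Tbx21, is lowest of the GFP+ libraries in replicate 2 (38.6 CPM), while Nkg7 is highest there (1203 CPM).

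Neighbouring genes were read on both sides of each gene. Of the 8 nearest annotated genes around Eomes (GENCODE M21) 4 had counts and 1, Golga4, could be tested. Golga4, a Golgi protein gene, was at 160.1 ± 60.6 CPM in GFP+ against 134 ± 26.9 CPM in GFP- cells (0.26 ± 0.27, adjusted p = 0.507). Gm33460, an antisense gene that overlaps Eomes, had 13 counts in all, at 0.479 ± 0.295 CPM in GFP+ against 0.0406 ± 0.0703 in GFP- cells and 0 elsewhere. Whether the counting used strand is not given in the sources used here, so its reads cannot be told apart from those of Eomes. Around Tbx21 4 of 8 had counts and 3 were tested. Osbpl7, an oxysterol-binding protein gene, was at 56.9 ± 2.79 CPM in GFP+ against 43.9 ± 1.05 CPM in GFP- cells (0.37 ± 0.09, adjusted p = 0.0062). Tbkbp1 (adjusted p = 0.159) and Kpnb1 (adjusted p = 0.756) were not called, where 37.1% of all genes were called.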

How the data were processed

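RNA was sequenced after depletion of ribosomal RNA from 11 ng of total RNA, per the labels' protocols. The authors deposited 1 table of estimated counts (an expected count per gene, not scaled). The submitters' processing notes list STAR 2.7.10a, Salmon 1.5.2, cutadapt 3.4 and Trim Galore 0.6.7, and as build GRCm39; their roles are not given in the sources used here. The table has 47 library columns, of which 13 could be tied to a labelled library and 34 were left out. Between 20.7% and 23.2% of the non-zero values of a library were not whole, and all were rounded. Depth was 6080956 to 10881129 counts, which limits Eomes outside GFP+ cells to 13 to 172 counts per library.

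Tests used edgeR 4.0.16 in R 4.3.3 (TMM, filterByExpr, robust quasi-likelihood, two-sided) in 1 model of 13 libraries and 5 groups with 8 residual degrees of freedom. Adjusted p-values (Benjamini-Hochberg, threshold 0.05) cover 14059 genes, and the SE is the fold change over the root of F. The test was tried on simulated counts. Correlations used log2 CPM with a prior count of 2. DESeq2 1.42.0, other normalizations and filters, the compared groups alone, replicate blocks and leaving out each library were alternatives. GFP+ and GFP- libraries of the same number share a prefix, read as the animal: their deviations from group means correlated at 0.317, 0.112 and 0.061, and other GFP+ and GFP- pairs ran from -0.255 to 0.155. Replicates differed beyond counting noise (chi-square per degree of freedom 8.01 to 30.9).

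Eomes and Tbx21, the comparisons and all gene lists were chosen with earlier results of these data known. Named are the pair, T-box genes with a count, up to 8 called list members per comparison by p (others named were chosen after their values were seen), the 4 nearest genes on each side, and the genes of highest and lowest correlation whose mean log2 CPM reached 2. Sequences came from GENCODE M21 (GRCm38) and RefSeq (GRCm38.p6), and no coordinates on GRCm39 were used. Results for some list members are not reported here.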

Additional observations from a re-analysis of the deposited data

How the results depend on the processing

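Of 282 values of Eomes and Tbx21 differences under alternatives, 261 kept their direction and side of the threshold. Those that did not were Eomes in Eomes-TKO 4-1BB against Eomes-TKO IgG cells (DESeq2 1.28, no filter 1.29; leaving out each library 0.54 to 1.69), Eomes in Eomes-TKO 4-1BB against GFP- cells (DESeq2 1.25, no filter 1.26), Eomes in Eomes-TKO against Eomes-GFP cells under IgG (only the groups compared -2.63; leaving out each library -2.81 to -2.33), Eomes in GFP- against Eomes-GFP IgG cells (-2.90 to -2.44), Tbx21 in Eomes-TKO 4-1BB against GFP+ cells (DESeq2 -0.93, no filter -0.90; -1.56 to -0.50) and Tbx21 in GFP+ against Eomes-GFP IgG cells (no filter 0.73; 0.37 to 1.24). Leaving out each library, Tbx21 changed sign in GFP+ against GFP- cells (-0.0847 without GFP+ replicate 1; -0.0847 to 0.51), in Eomes-TKO against Eomes-GFP cells under IgG (-0.17 without Eomes-GFP IgG replicate 1; -0.17 to 0.67) and in Eomes-TKO 4-1BB against Eomes-TKO IgG cells (0.0422 without Eomes-TKO 4-1BB replicate 1; -0.99 to 0.0422). The replicate block changed no call of the pair: with the replicate number as a block Tbx21 in GFP+ against GFP- cells was 0.30 and Eomes 8.01, and with the animal as a block 0.19 and 7.97. Counts of called genes moved where few genes were called. In GFP- against Eomes-GFP IgG cells they were 107, against 297 by DESeq2, 521 without a filter, 393 with only the groups compared, 266 with the number as a replicate block and 1 to 202 leaving out each library. In Eomes-TKO against Eomes-GFP cells under IgG they were 2, against 5, 112 and 1 by the first 3 of these and 0 to 5 leaving out each library. In Eomes-TKO 4-1BB against Eomes-TKO IgG cells they were 6, against 10 with upper-quartile normalization, 63 by DESeq2, 258 without a filter, 0 with only the groups compared, 15 with the block and 0 to 83 leaving out each library. In Eomes-TKO 4-1BB against GFP- cells they were 6, against 0, 52, 220 and 12 with upper-quartile normalization, DESeq2, no filter and the block, and 0 to 15 leaving out each library. GFP+ against Eomes-GFP IgG cells gave 3195 to 5038 and Eomes-TKO 4-1BB against GFP+ cells 3060 to 4991 leaving out each library, around 4809 and 4859. Counts of linked genes stayed within 1.5 times in 123 of 141 values. The cause of these changes was not tested. Groups of 2 and 3 libraries and 13 to 77 Eomes counts in Eomes-TKO libraries limit what could be detected there.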
